A study of Mus musculus with 8 samples.

Results

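The wt P5424 line was compared with primary DN3 thymocytes by circularized chromosome conformation capture (4C-seq) from the *Ikzf1* promoter. The comparison takes the 1 library of unstimulated wt P5424 cells and the 1 library of DN3 thymocytes, chosen by their sample labels, out of the 6 4C libraries and 8 libraries of the series. Every DpnII fragment of chromosome 11 farther than 15 kb from the bait was used, which made 295384 of the 295446 fragments listed. The series asks how enhancers upstream of *Ikzf1* contact its promoter, and the P5424 line served in it as the model in which such an enhancer, IkE120, was deleted. The comparison with DN3 cells therefore addresses where the contacts of the line depart from those of primary cells.

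DN3 cells are immature thymocytes without CD4 and CD8, at the stage at which the T cell receptor beta chain is rearranged and tested. Ikaros, the product of *Ikzf1*, binds DNA through zinc fingers and switches genes on or off as thymocytes mature. An enhancer can act from far along the chromosome when the chromatin between it and the promoter folds into a loop, and a dense cluster of enhancers is called a super-enhancer. In 4C, crosslinked chromatin is digested and ligated, so that pieces of DNA lying close together in the nucleus are joined, and the partners of a chosen bait are then amplified by inverse PCR and sequenced.

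P5424 is a mouse line of early T cell precursors, kept in culture, and "wt" refers to IkE120, which is intact in it. The cells used here had received no PMA and no ionomycin, and the header of their file names the solvent DMSO. DN3 cells came from thymuses of wild-type mice, named c57/Bl6 in the labels, by sorting, and were fixed at once. The labels give no number of mice and no age, which is stated in the study's methods. The labels describe these cells as low in CD44 and positive for CD25, whereas the text of the study writes CD44+. Nuclei of both cell types were permeabilized in the same way. 4C measures no expression, so neither cell type was checked against its markers. As values beside the comparison, the other 4C libraries are given where they help: wt P5424 cells stimulated with PMA (20 µg/ml) and ionomycin (0.5 µg/ml) over 6 h, a clone of P5424 cells without IkE120 (ΔIkE120) with and without this stimulation, and J1 embryonic stem (ES) cells, whose nuclei were permeabilized more mildly. Where no other library is named, P5424 and "the line" stand for the unstimulated wt library.

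The bait lies at 11583520 on chromosome 11 of mm9, 1486 bp before the annotated start of *Ikzf1*, in a DpnII fragment from 11583154 to 11583952. *Ikzf1* is on the plus strand, so lower coordinates are upstream. The P5424 library held 2025891 reads, of which 1742231 lay farther than 15 kb from the bait, on 6523 fragments. The DN3 library held 1788106 reads, of which 1525273 lay outside 15 kb, on 7577 fragments. The line therefore had more reads on fewer fragments, with a mean of 267 reads per covered fragment against 201 in DN3, although the median was 30 in both. All shares below are of the reads outside 15 kb unless another base is named. Brackets hold exact (Clopper-Pearson) 95% intervals, which cover counting error only, because reads copied by PCR cannot be told from separate molecules. Each condition has 1 library, so no difference here has a replicate check and no p-value is given.

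The upstream super-enhancer contacted the promoter to a similar extent in the line and in primary cells. *Ikzf1* itself, downstream of the bait, took fewer reads in P5424 than in DN3 cells. Between 250 kb and 1 Mb from the bait the order was the opposite, and P5424 had 1.85 times the DN3 share. Farther away, single megabases of the chromosome differed in either direction.

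Signals at the locus are read counts that were quantile normalized across the 6 4C libraries, then averaged over 21 neighbouring fragments (running mean). A window reached 10 kb to both sides of a DNase I hypersensitive site (DHS), measured from its centre, and 13 of the 16 DHSs that the study lists at *Ikzf1* were far enough from the bait. At IkE120, a strong enhancer of the study's reporter assay in an intron of the noncoding gene Gm11998 (11464295 to 11464600), the signal was 3228 in P5424 and 3126 in DN3, a log2 ratio of 0.05. The window held 8.81% (8.77% to 8.85%) of the P5424 reads and 6.85% (6.81% to 6.89%) of the DN3 reads, so by share unstimulated wt P5424 was the higher one, at a log2 ratio of 0.36. On both scales DN3 lay within the range of the 4 P5424 libraries, which was 6.38% to 9.07% by share. The 2 scales thus differ in size at this enhancer, and neither places unstimulated wt P5424 below the primary cells.

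The other 3 upstream enhancers were lower in unstimulated wt P5424 by signal, but DN3 lay within the range of the 4 P5424 libraries at 7 of all 9 upstream windows, among them IkE180 and IkE155 but not IkE25. At IkE180, the other strong enhancer, in an intron of *4930415F15Rik* (11406270 to 11406453), the signal was 1326 in P5424 and 1450 in DN3, a log2 ratio of -0.13, while the other 3 P5424 libraries were above DN3. IkE155, a weak enhancer between genes (11428864 to 11429017), had 1110 and 1464, a log2 ratio of -0.40. At IkE25, a weak enhancer in an intron of Gm11999 (11557248 to 11557441), the values were 2096 and 2253, a log2 ratio of -0.10, with DN3 above all 4 P5424 libraries, while by share it was 0.13. IkE155 was thus the upstream enhancer with the lowest ratio, and it was lower in unstimulated wt P5424 under all 12 alternatives run, although stimulated ΔIkE120 cells, at 1554, were above DN3. By share DN3 was above all 4 P5424 libraries at IkE155. Over the interval of 8 upstream DHSs, from 11406270 to 11469761, the share was 15.8% in P5424 and 15.3% in DN3, and 149 and 156 of its 171 fragments were covered. By signal the order was the opposite, at 1708 and 1926 and a log2 ratio of -0.17, with DN3 above all 4 P5424 libraries. Among the 9 upstream windows the log2 ratios ran from -0.40 to 0.05, with a median of -0.09.

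Downstream, all 4 windows were lower in unstimulated wt P5424, and at 3 of them DN3 lay above all 4 P5424 libraries. IkE+15, a weak enhancer in an intron of *Ikzf1* (11611793 to 11612034), had a signal of 1395 in P5424 and 1885 in DN3, a log2 ratio of -0.43, and was the exception, with 1931 in stimulated ΔIkE120 cells. The 3 DHSs between 11625705 and 11626493, which were inactive in the reporter assay and also lie in an intron of *Ikzf1*, share most of their fragments and had log2 ratios of -0.69, -0.68 and -0.66. At the one that starts at 11625705, the P5424 signal was 1611 and the DN3 signal 2593, and all 40 fragments of the window were covered in both libraries. None of the 13 windows passed 2 fold in either direction. The same locus was also cut into tiles of 20 kb with centres up to 250 kb away, and of all 24 tiles 1 (4.17%) was at least 2 fold higher in P5424 and 0 (0%) were at least 2 fold lower, so the windows did not stand apart from the locus.

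**Figure D1:**
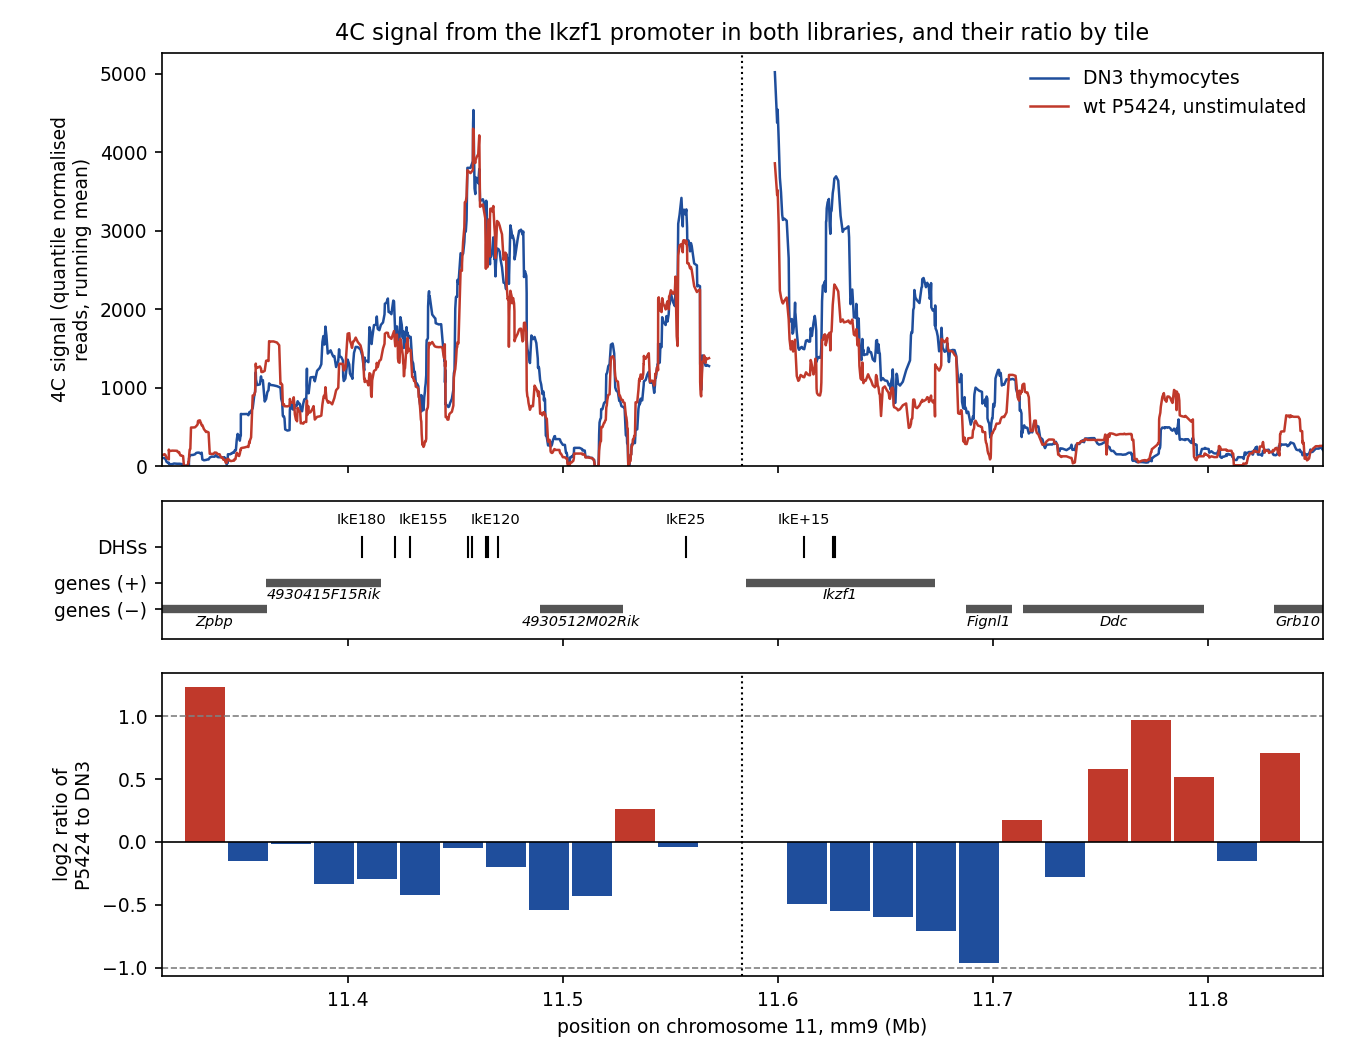
Top, 4C signal (quantile normalized reads, running mean of 21 fragments) of wt P5424 and DN3 cells against position on chromosome 11 of mm9, with the bait as a dotted line and fragments within 15 kb of it left out. Middle, the DHSs and the protein-coding genes by strand. Bottom, log2 ratio of P5424 to DN3 in tiles of 20 kb, with dashed lines at 2 fold. The profiles overlie at IkE120, DN3 is higher over *Ikzf1*, and the tile at the left edge reaches 1.23.

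The 5 tiles over *Ikzf1* and most of *Fignl1*, a gene for an ATPase of DNA repair, were all lower in the line. Over the 229 fragments from 11603521 to 11703520, the mean signal was 1034 in P5424 and 1592 in DN3, a log2 ratio of -0.62. These tiles had log2 ratios of -0.49, -0.55, -0.59, -0.71 and -0.96 in order of distance. The ratio thus fell from tile to tile towards *Fignl1*, but the next tile, which holds the rest of *Fignl1* and part of *Ddc*, had 765 and 678, a log2 ratio of 0.17. The stretch took 11.6% of the P5424 reads and 16.8% of the DN3 reads. *Ikzf1* was nearly fully covered in both, with 153 of its 156 fragments in P5424 and 154 in DN3, so there the difference lay in reads per fragment. Of the 52 fragments of *Fignl1*, 38 were covered in P5424 and 45 in DN3.

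The remaining P5424 libraries gave the same order over these tiles. In the tile from 11663521 to 11683520 at the end of *Ikzf1*, the signal was 1145 in unstimulated wt P5424, 1870 in DN3, 658 in stimulated wt, 1335 in unstimulated ΔIkE120, 908 in stimulated ΔIkE120 and 1423 in ES cells. In the tile from 11683521 to 11703520 over *Fignl1*, it was 428, 832, 657, 561, 587 and 569 in the same order of libraries. DN3 was the highest of the 6 libraries in both tiles. In all 5 tiles the DN3 signal lay above all 4 P5424 libraries, which was the case in 10 of all 24 tiles (41.7%), and below all 4 in 2 of 24 (8.33%). By share of reads, DN3 lay above all 4 in 4 of the 5 tiles and in 5 of all 24. The 4 P5424 libraries are not replicates, as they differ in stimulation and in IkE120.

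By gene, *Ikzf1* took 10.0% (9.99% to 10.1%) of the reads in P5424 and 14.8% (14.8% to 14.9%) in DN3, a log2 ratio of shares of -0.56. For *Fignl1* the shares were 1.00% and 2.25%, a log2 ratio of -1.17. *Ddc*, which encodes the enzyme that makes dopamine from L-DOPA, lies directly beyond and went the other way, at 3.11% in P5424 and 2.18% in DN3. *Zpbp*, a gene for a protein of the sperm acrosome at the far upstream side, took 3.36% and 2.04%. *Grb10*, which encodes an adaptor of growth factor receptors, took 2.35% and 2.08%, with DN3 within the range of the 4 P5424 libraries (1.77% to 2.35%). *4930415F15Rik* (5.04% and 5.59%) and *4930512M02Rik* (2.42% and 2.83%), on either side of the IkE120 cluster, were lower in unstimulated wt P5424, but DN3 lay within the range of the 4 P5424 libraries for both. The noncoding genes Gm11998 (9.77% and 7.79%), Gm11999 (6.63% and 6.00%) and *1700042O10Rik* (0.918% and 0.526%) were higher, but by quantile normalized signal the log2 ratios of Gm11998 and Gm11999 were -0.06 and -0.03. By share DN3 lay within the range of the 4 P5424 libraries for Gm11998 and Gm11999. *Fignl1* and *Ikzf1* thus had the lowest ratios of these genes on both scales, while *Zpbp* and *Ddc*, towards the edges of the locus, had higher shares in all 4 P5424 libraries than in DN3.

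The tiles with the largest ratios lay at these edges. They were chosen by the ratio of unstimulated wt P5424 to DN3, which favours a low DN3 value. The tile from 11323521 to 11343520, inside *Zpbp*, had a signal of 256 in P5424 and 109 in DN3, a log2 ratio of 1.23, and its shares were 0.616% (0.605% to 0.628%) and 0.258% (0.250% to 0.267%). The tile from 11763521 to 11783520 in *Ddc* followed, at 432 and 220 and a log2 ratio of 0.97. The tile from 11823521 to 11843520, which reaches *Grb10*, had 356 and 219, a log2 ratio of 0.70. In the first 2 of these tiles DN3 lay below all 4 P5424 libraries, whereas in that of *Grb10* the other 3 P5424 libraries, at 145, 133 and 151, were below DN3. All 3 were weakly contacted tiles, ranked between 16 and 24 of 24 in either library. The 3 tiles with the lowest ratios, at -0.96, -0.71 and -0.59, were those of the *Ikzf1* and *Fignl1* stretch. With covered fragments in place of reads the *Zpbp* tile was lower in P5424, at -0.20, where 28 of its 57 fragments were covered against 31 in DN3, and so was that of *Grb10*, at -0.25, with 27 and 33 of its 48 fragments covered.

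The most contacted tile was the same in both cell types. From 11463521 to 11483520, which holds IkE120, the signal was 2355 in P5424 and 2709 in DN3. The next ranks differed. P5424 had its next highest tile from 11543521 to 11563520 around IkE25, and DN3 from 11623521 to 11643520 in *Ikzf1*, which was only the 4th in the line.

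With distance, the reads of the line fell off less steeply. Within 250 kb lay 53.2% (53.1% to 53.2%) of the P5424 reads and 58.1% (58.1% to 58.2%) of the DN3 reads. By covered fragments this order turned, with 13.1% of those of P5424 and 12.2% of those of DN3. From 250 kb to 1 Mb it was 8.19% (8.15% to 8.23%) and 4.42% (4.39% to 4.45%). From 1 to 10 Mb the shares were 18.6% and 13.4%. Only beyond 10 Mb was DN3 the higher one again, at 24.0% against 20.1%, but stimulated wt and stimulated ΔIkE120 cells, at 29.6% and 25.9%, were above it. The slope of log10 reads per fragment against log10 distance over 12 bins from 15 kb to 10 Mb was -1.14 (SE of the line 0.12) in P5424 and -1.25 (0.15) in DN3, a gap within the SE of either line. By covered fragments the slopes were -0.643 and -0.664, and from 15 kb to 1 Mb they were -1.25 and -1.57 by reads. Of the reads up to 1 Mb, 90% lay within 287 kb of the bait in P5424 and within 221 kb in DN3.

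Between 250 kb and 1 Mb, DN3 had the lowest share of all 6 libraries. It was 8.19% in unstimulated and 6.79% in stimulated wt P5424, 7.21% in unstimulated and 8.84% in stimulated ΔIkE120, 24.0% in ES cells and 4.42% in DN3. The P5424 libraries thus lay between DN3 and ES cells, and nearer to DN3. Of the 3792 fragments, 591 were covered in P5424 and 481 in DN3, but in stimulated wt P5424 only 432 were, so DN3 was not the lowest by this count. Without the 10 most read fragments of each library in this range, a setting chosen after seeing the data, the shares were 5.97% and 3.40%.

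The sides were not alike. Within 250 kb the upstream side took 35.8% of the reads in P5424 and 36.0% in DN3, nearly the same, and the downstream side 17.4% and 22.1%. The upstream side therefore held 67.3% (67.2% to 67.4%) of the P5424 reads and 62.0% (61.9% to 62.1%) of the DN3 reads within 250 kb. In the other libraries this was 63.1% in stimulated wt, 66.8% in unstimulated and 66.0% in stimulated ΔIkE120, and 54.3% in ES cells. All 4 P5424 libraries were thus above DN3, the stimulated wt library by the least. Over the whole chromosome outside 15 kb the upstream side held 51.7% in P5424 and 47.3% in DN3. Stimulated wt, at 44.4%, and stimulated ΔIkE120, at 47.3%, were not above DN3 there. From 1 to 8.5 Mb DN3, at 80.2%, was above all 4 P5424 libraries (69.4% to 76.5%).

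From 250 kb to 1 Mb the sides parted further. Upstream, this range held 4.69% (4.66% to 4.73%) of the P5424 reads and 1.63% (1.61% to 1.65%) of the DN3 reads, a log2 ratio of 1.53. Downstream it held 3.50% and 2.79%, a log2 ratio of 0.32. From 250 to 500 kb the log2 ratio was 1.46 upstream and 0.04 downstream, and from 500 kb to 1 Mb 1.68 and 1.39. The sides thus parted mainly from 250 to 500 kb. Downstream from 1 to 2 Mb, P5424 had 1.20% on 88 fragments and DN3 0.185% on 37 fragments, while upstream both had about the same, at 1.72% and 1.79%. In the other libraries the downstream share from 1 to 2 Mb was 0.411% in stimulated wt, 0.783% in unstimulated and 0.336% in stimulated ΔIkE120, and 3.82% in ES cells. By share DN3 was the lowest there too, although stimulated wt P5424 also had 37 covered fragments and the P5424 libraries ran from 0.336% to 1.20% among themselves.

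**Figure D2:**
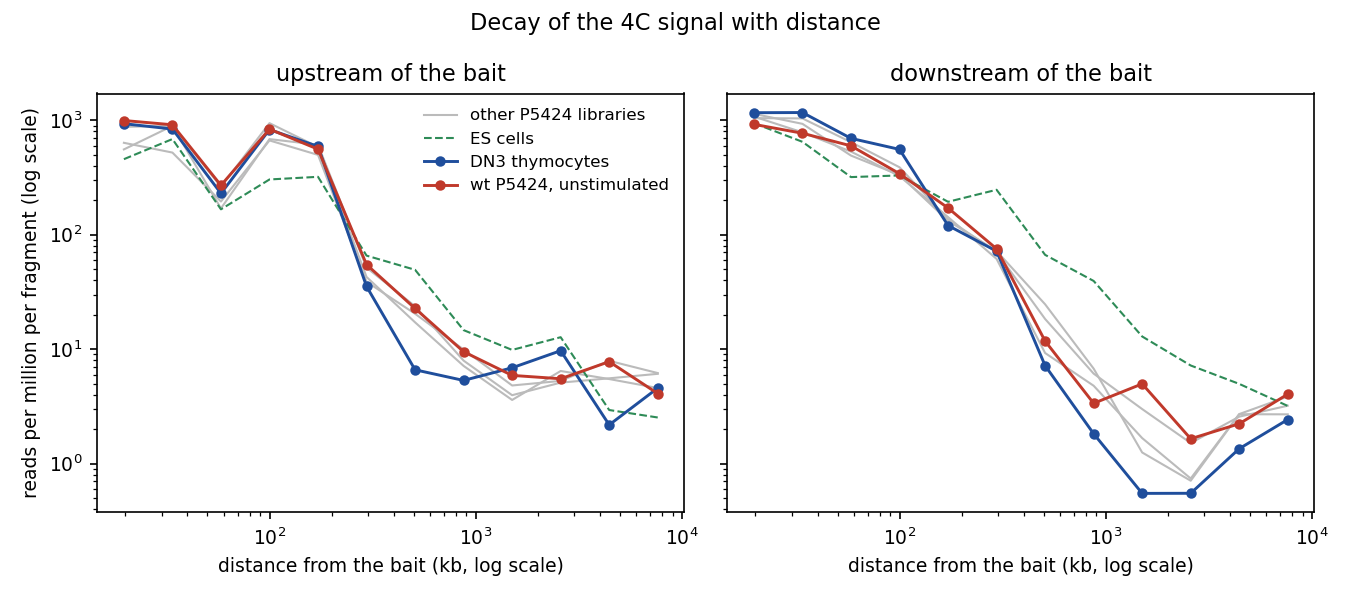
Reads per fragment, scaled to the same total (RPM), against distance from the bait, both on log scales, upstream (left) and downstream (right), in 12 distance bins. DN3 lies below the P5424 libraries between 250 kb and 1 Mb upstream and between 500 kb and 10 Mb downstream, and ES cells lie above them between 250 kb and 1 Mb.

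Farther than 1 Mb from the bait, chromosome 11 was read in 118 bins of 1 Mb. By share, 46 bins were higher in P5424 and 72 higher in DN3. At least 2 fold higher in P5424 were 17 bins (14.4%), and at least 2 fold lower 43 bins (36.4%). The DN3 share lay below all 4 P5424 libraries in 29 bins (24.6%) and above all 4 in 29 bins (24.6%). Differences at this scale thus went both ways in like number when all P5424 libraries were asked for. Any single library lies below or above all the others in some bins by ordering alone, and these counts were not tested against that.

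Gains and losses are ranked here by the difference in percentage points. It is taken between unstimulated wt P5424 and DN3, so extreme values of either in the ranked bins partly follow from the ranking. By ratio other bins differed more, such as that from 47000001 to 48000000, at 0.736% in P5424 and 0.014% in DN3. There 36 and 8 fragments were covered. Stimulated wt had 0.223%, and unstimulated and stimulated ΔIkE120 cells had 0.133% and 0.277%. From 121000001 to 122000000 the shares were 0.0006% and 0.107%. Of the 3 largest gains of the line, 2 were in neighbouring bins. The bin from 6000001 to 7000000 took 2.87% (2.85% to 2.90%) of the reads in unstimulated wt P5424 and 1.04% (1.02% to 1.05%) in DN3, with 313 and 201 covered fragments. In the other libraries it took 3.40% in stimulated wt, 2.30% and 2.22% in unstimulated and stimulated ΔIkE120, and 0.646% in ES cells. All 4 P5424 libraries were above DN3 in this bin, and ES cells were the lowest. The bin beside it, from 7000001 to 8000000, took 1.41% in P5424 and 0.135% in DN3, and 0.893%, 0.736%, 0.757% and 0.833% in the others in the same order. Here DN3 alone was low, with 38 covered fragments against 121 in P5424. These bins hold 17 and 2 protein-coding genes, where the median of the 118 bins was 10.

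The bin from 20000001 to 21000000, with 8 protein-coding genes, took 2.68% in P5424 and 0.975% in DN3, and 1.72%, 1.27%, 1.36% and 0.779% in the others. Reads and fragments differed here, as the covered fragments were 193 in P5424 and 189 in DN3. The largest loss of the line in percentage points, which was under 2 fold, adjoined the gains at 6 and 7 Mb. From 8000001 to 9000000, P5424 had 1.76% and DN3 2.92% (2.89% to 2.94%), with 200 and 371 covered fragments, and the others had 1.48%, 1.77%, 1.33% and 2.24%. DN3 was the highest of all 6 libraries there.

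The next largest losses lay farther from the bait. From 62000001 to 63000000, a bin with 19 protein-coding genes, P5424 had 0.148% and DN3 0.844%, and the others 0.365%, 0.367%, 0.390% and 0.169%. DN3 was the highest of the 6 and unstimulated wt P5424 the lowest. From 43000001 to 44000000 the shares were 0.217% and 0.780%, and in the others 0.634%, 0.534%, 0.870% and 0.573%. In this bin DN3 lay within the range of the P5424 libraries by share, so by share the whole line was not set apart from the primary cells. By covered fragments DN3 was above all of them. It had 131, against 64 in unstimulated and 55 in stimulated wt P5424, and 89 and 99 in unstimulated and stimulated ΔIkE120 cells.

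**Figure D3:**
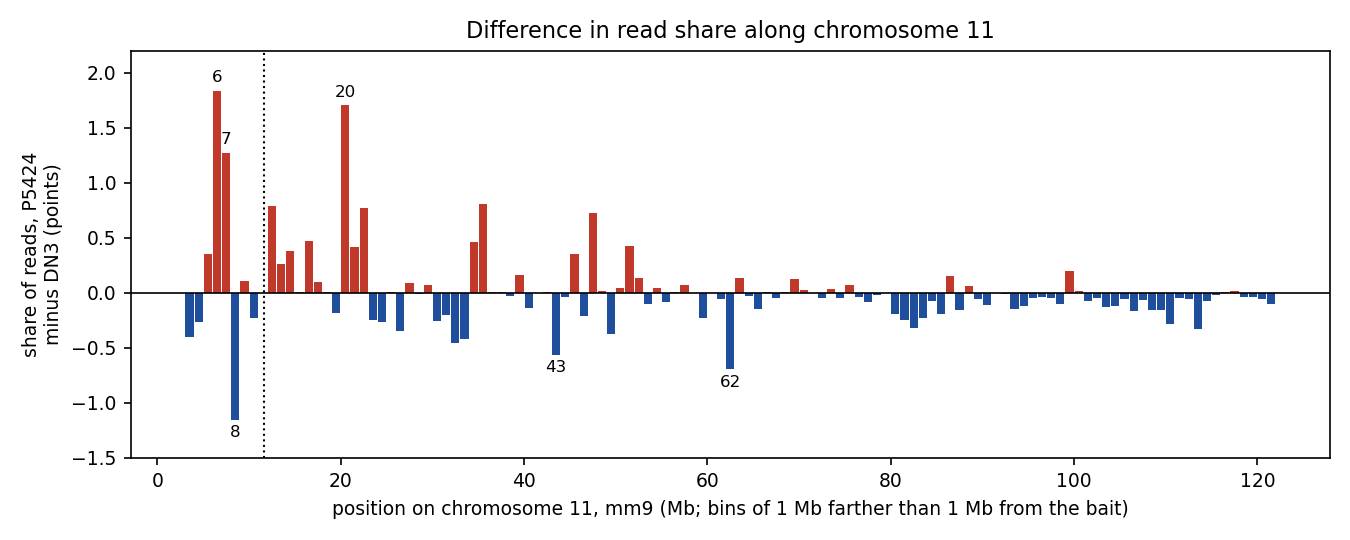
Share of reads in P5424 minus that in DN3, in percentage points, for the 118 bins of 1 Mb farther than 1 Mb from the bait (dotted line), against position on chromosome 11 of mm9. The 3 bins with the largest differences in each direction carry their start in Mb. Gains at 6 and 7 Mb adjoin a loss at 8 Mb.

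Interactions were called in each library alone, as runs of fragments whose running mean exceeded a background that falls with distance. Of the 4950 fragments within 1 Mb, 372 (7.52%) in 23 runs were called in P5424 and 292 (5.9%) in 25 runs in DN3. Of these runs 5 and 3 lay within 250 kb, and the others, in which at most 13 fragments were covered in P5424 and 8 in DN3, rest on few read fragments. Within 1 Mb, 237 fragments were called in stimulated wt, 120 in unstimulated and 75 in stimulated ΔIkE120 cells, all below DN3. With a running mean of 41 fragments the order of P5424 and DN3 turned, at 137 and 287. It was 95 and 55 with the background within 500 kb, and 254 and 225 at 1.5 interquartile ranges. Only 65 of the 292 fragments of DN3 were also called in P5424. Within 250 kb, 54 fragments were called in P5424 and 22 in DN3, and 40, 44 and 17 in stimulated wt, unstimulated ΔIkE120 and stimulated ΔIkE120 cells, so DN3 lay within the range of the P5424 libraries. All 22 of DN3 were among the 54 of unstimulated wt P5424, of which they made 40.7%. In both, the calls centred on the IkE120 cluster, from 11453074 to 11464023 in P5424 and from 11455180 to 11464023 in DN3, and each continued from 11464313 to 11464437 (midpoints of the first and last fragment of a run). The line had a further run from 11465213 to 11473545, to the right of IkE120, in which DN3 had no call. Over the window of IkE120 this made 43 called fragments in P5424 and 21 in DN3, which became 38 and 36 with a running mean of 41 fragments, 45 and 28 with the background within 500 kb, and 26 and 4 at 1.5 interquartile ranges. The extent of the call and the gap between the libraries therefore depended on the setting, while in this window P5424 had more called fragments than DN3 under each of them. Of the ES fragments within 250 kb, 0 were called.

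Single fragments differed far more than windows. The most read fragment was the same in both libraries, from 11557680 to 11557816 beside IkE25, with 22195 reads (1.27%) in P5424 and 14246 (0.934%) in DN3. Among fragments within 250 kb, the largest gain of the line was from 11458106 to 11458130 in an intron of Gm11998, with 19194 reads in P5424 and 5797 in DN3. Next were the fragment from 11443221 to 11443513, between genes, with 13985 and 1953 reads, and the one from 11359809 to 11361059 in an intron of *Zpbp*, with 11076 and 560. Only the last of these sets the whole line apart, at 0.636% in unstimulated and 0.152% in stimulated wt P5424, 0.354% and 0.131% in unstimulated and stimulated ΔIkE120 cells and 0.037% in DN3. At the other 2, DN3 lay within the range of the P5424 libraries. The one from 11443221 had 1 read in stimulated wt P5424, and 4608 and 2546 in unstimulated and stimulated ΔIkE120 cells. In each of the 3 the unstimulated wt library was the highest by share of the 4 P5424 libraries. The ranking by its gain over DN3 favours this.

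The largest losses were from 11625297 to 11625684 in an intron of *Ikzf1*, with 817 reads in P5424 and 12800 in DN3, from 11454070 to 11454229 between genes, with 607 and 12314, and from 11476517 to 11477141 in an intron of Gm11998, with 1846 and 10376. In unstimulated ΔIkE120 cells, the same fragments had 13394, 15779 and 16041 reads, which made 0.401%, 0.472% and 0.480% of that library. In DN3 the shares were 0.839%, 0.807% and 0.680%, above all 4 P5424 libraries at each of the 3 fragments. Unstimulated wt P5424 was the lowest of the 4 at each, at 0.047%, 0.035% and 0.106%. The fragments were ranked by the difference between DN3 and unstimulated wt P5424, which in part fixes that the former was high and the latter low. The 5 most read fragments of P5424 also included those from 11677054 to 11678043, 4.13 kb beyond *Ikzf1*, with 15196 reads against 5353 in DN3, and from 11623489 to 11623906 in an intron of *Ikzf1*, with 13140 against 8906. In DN3 the fifth was from 11459503 to 11460209 in an intron of Gm11998, with 9584 reads against 8289 in P5424. The fragment wholly inside IkE120, from 11464326 to 11464553, had 1922 reads (0.110%) in P5424 and 193 (0.013%) in DN3, but stimulated wt P5424, in which IkE120 is also intact, had 366 (0.024%). ES cells had 1274 (0.041%), more than DN3 or stimulated wt P5424 by share.

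The short fragments among these are given below because they show what a single 4C count rests on. They are from the plus strand of mm9, with the DpnII sites (GATC) that bound them and any Csp6I site (GTAC), at which the ligated DNA was cut again, in capitals. The fragment that gained most reads in the line is 25 bases long with its sites.
chr11:11458106-11458130: GATCcaGTACaggattatcctGATC
chr11:11443221-11443513: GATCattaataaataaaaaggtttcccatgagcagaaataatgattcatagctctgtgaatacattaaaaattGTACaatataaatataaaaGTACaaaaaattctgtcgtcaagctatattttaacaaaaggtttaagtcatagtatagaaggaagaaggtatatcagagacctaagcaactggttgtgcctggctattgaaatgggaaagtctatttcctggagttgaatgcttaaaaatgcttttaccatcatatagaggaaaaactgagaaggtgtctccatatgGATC
chr11:11454070-11454229: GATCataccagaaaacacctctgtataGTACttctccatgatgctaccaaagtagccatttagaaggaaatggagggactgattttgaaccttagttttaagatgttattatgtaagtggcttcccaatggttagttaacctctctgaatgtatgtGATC
chr11:11464326-11464553: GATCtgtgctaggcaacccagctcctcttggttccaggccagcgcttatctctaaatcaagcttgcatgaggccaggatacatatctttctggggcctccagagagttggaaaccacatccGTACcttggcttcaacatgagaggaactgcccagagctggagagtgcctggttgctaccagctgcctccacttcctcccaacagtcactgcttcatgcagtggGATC
chr11:11557680-11557816: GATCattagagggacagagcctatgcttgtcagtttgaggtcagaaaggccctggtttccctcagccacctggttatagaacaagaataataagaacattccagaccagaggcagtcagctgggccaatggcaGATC
The last of these, the most read fragment of both libraries, holds no Csp6I site, and the other 4 hold at least 1.

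How far the same fragments were seen in both libraries depended on distance. Within 250 kb, 855 of 1158 fragments were covered in P5424 and 924 in DN3, and the 809 shared made 94.6% of the former and 87.6% of the latter. From 250 kb to 1 Mb the shared 209 made 35.4% and 43.5%, where P5424 covered 15.6% and DN3 12.7% of all fragments. Beyond 10 Mb, 149 were shared, 5.08% of the P5424 and 3.63% of the DN3 fragments. Of all fragments there, P5424 covered 1.18% and DN3 1.65%. The line's own libraries shared like numbers at that distance. Of the fragments of unstimulated wt P5424, 193 (6.58%) were also covered in stimulated wt P5424, 160 (5.46%) in unstimulated and 146 (4.98%) in stimulated ΔIkE120 cells. From 1 to 10 Mb, the part of the P5424 fragments shared with another library ran from 10.1% in DN3 to 13.3% in ES cells. Of all fragments in that range, DN3 covered 4.93% and ES cells 9.03%. Beyond 1 Mb, most fragments of unstimulated wt P5424 were thus not shared with any single other library, and values there are given by bin. Between 250 kb and 1 Mb sharing was wider, from 30.6% in stimulated wt P5424 to 78.0% in ES cells. Of all fragments in that range the former covered 11.4% and the latter 47.4%, so the parts shared are not on a like base.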

How the data were processed

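Per the labels and the study's methods, nuclei were digested with DpnII and Csp6I. The authors trimmed the bait sequence, mapped reads with Bowtie (1.0.0 in the submitters' processing notes, which name GRCm38 only) and deposited raw counts of reads on each DpnII fragment along chromosome 11. All 295446 positions matched midpoints of DpnII fragments of mm9, so that build was used, with GENCODE M1. Some libraries lack the fragments at 11582403 and 11583550, which were dropped from all. Fragment coordinates here include both GATC sites, and called runs are given by fragment midpoints. Quantile normalization preceded the running mean. Alternatives changed the normalization, smoothing, windows, tiles, capping, excluded distance and call settings. Tiles were counted from the bait, and needed at least 50 reads in either library. Interaction calls followed the single-profile approach of peakC in new code, where the ratio to an isotonic background had to exceed the upper quartile by 1 and the difference by 1.5 interquartile ranges. Both steps were tested on simulated data. Named items are the DHSs of the study, genes within 250 kb with at least 10 fragments, up to 3 tiles, fragments and distant bins per direction with the largest differences, and the 5 most read fragments of each library. The fragment inside IkE120 was added after its values were seen. Members and lists were chosen with earlier results of these data known. The H3K27ac libraries were not used here. Computations ran in Python 3.11.15 (scipy 1.17.1, pandas 2.3.3, numpy 2.4.6; figures, matplotlib 3.10.9).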

Additional observations from a re-analysis of the deposited data

How the results depend on the processing

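Counting covered fragments in place of reads turned the direction of the only tile past 2 fold, from 11323521 to 11343520 (log2 ratio of 1.23, then -0.20), and of the share of reads within 250 kb of the bait. Tiles and windows under 2 fold turned more widely. By covered fragments 7 of all 24 tiles and 2 of 13 windows turned, in RPM within 250 kb 6 and 6, with the running mean first 4 and 6, in RPM 4 and 4, and fewer in sum under each of the others. In the 4 downstream windows every fragment was covered in both libraries, so covered fragments could not turn them. P5424 minus DN3, the share within 250 kb was -4.99 points, and 0.913 points by covered fragments. The cause was not tested. It was -4.42 with 5 kb left out around the bait and -7.47 on fragments with a Csp6I site. The upstream share, 4.33 points higher in P5424, was 4.50 with 5 kb left out, 4.19 with capped counts (99th percentile), 4.89 by covered fragments, 2.53 on Csp6I fragments and 5.79 within 1 Mb. The difference in slope, 0.11, was 0.32 from 15 kb to 1 Mb and 0.021 by covered fragments.

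The share from 250 kb to 1 Mb, 3.77 points higher in P5424, was 3.84 with capped counts, 2.71 by covered fragments, 3.38 on Csp6I fragments and 2.57 without the most read fragments. These settings, those for *Ikzf1* and *Fignl1* and the distant bins, and scaling within 250 kb, were chosen after seeing the data.

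The median log2 ratio of the 13 windows, -0.13, was -0.035 in reads scaled to the total outside 15 kb (RPM), -0.19 with normalization of the 2 libraries, 0.084 with the running mean first, -0.19 with 41 fragments, -0.18 without a running mean, -0.22 with capped counts, 0 by covered fragments, -0.21 on Csp6I fragments, 0.094 in RPM within 250 kb, -0.20 and -0.30 with 5 and 20 kb windows, and -0.21 without the most read fragment. IkE120 ran from -0.14 to 0.42, and no window passed 2 fold in any of the 12. Over *Ikzf1* and *Fignl1*, -0.62 became -0.56 in RPM, -0.72 with normalization of the 2 libraries, -0.43 with the running mean first, -0.60 without one, -0.63 with capped counts, -0.064 by covered fragments, -0.52 on Csp6I fragments and -0.43 in RPM within 250 kb.

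The 1 tile past 2 fold higher became 3 with normalization of the 2 libraries and in RPM within 250 kb, 2 with 41 fragments and with 10 kb tiles, and 0 with the running mean first and by covered fragments. The 0 tiles lower became 1 in RPM, with normalization of the 2 libraries, with the running mean first, in RPM within 250 kb, in shifted tiles and without the most read fragment, and 3 with 10 kb tiles. Called runs, 23 in P5424 and 25 in DN3, became 6 and 8 with the background within 500 kb and 9 and 15 with 41 fragments, and 18 and 16 at 1.5 interquartile ranges. The 43 distant bins lower in P5424 became 24 by covered fragments. With 1 library per condition, a difference between cells cannot be told apart from one between preparations.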

Other observations

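Reads were spread differently over fragments in the libraries. The 10 most read fragments outside 15 kb held 8.13% of the reads in unstimulated wt P5424, 6.64% in DN3, 5.22% in stimulated wt P5424, 5.42% and 4.04% in unstimulated and stimulated ΔIkE120 cells, and 3.20% in ES cells. The P5424 library compared here was thus the one with the most reads on few fragments.

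Fragments with and without a Csp6I site took different parts of the reads. Within 250 kb, the 537 fragments with a site held 34.0% of the reads in P5424 and 40.2% in DN3, and the 621 without one held 19.1% and 17.9%. The lower share of P5424 within 250 kb thus lay on fragments with a site, and on the others P5424 was the higher one. Of the fragments with a site 75.8% were covered in P5424 and 80.3% in DN3, and of those without 72.1% and 79.4%. The part of this in the differences along the locus was not tested beyond the values on Csp6I fragments given above.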
